A study of Homo sapiens with 8 samples.

Results

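Interferon-stimulated genes were followed one by one in TeloHAEC, a line of human aortic endothelial cells immortalised with telomerase. The set holds 40 genes, all of which had a row in the deposited table of 34415 genes. RNA was sequenced from 4 control and 4 estradiol libraries of wild-type cells, and palmitic acid, a saturated fatty acid, was in the medium of both groups. Estradiol is the main estrogen, and the series asks what it does in endothelial cells in a medium meant to resemble an atherosclerosis-prone setting. Groups came from the sample titles, since the treatment label of the estradiol libraries names only palmitic acid. All libraries come from 1 cell line, and doses and exposure times were not stated. Nothing says that the replicates were separate cultures, so p-values reflect library-to-library spread alone, possibly technical.

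The genes were chosen by name as known interferon targets, with their control and estradiol FPKM values in these 8 libraries already known. The difference between the groups is therefore given as a description, and nothing is tested over the list. FPKM counts fragments per kilobase of gene length, scaled to the total of a library, so levels can be compared between genes. The deposited values could be turned back into whole reads, between 33421051 and 39899258 per library.

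Interferons are secreted proteins that warn neighbouring cells of infection. Type I interferons bind the receptor of IFNAR1 and IFNAR2, the kinases JAK1 and TYK2 phosphorylate STAT2 among other factors, and STAT2 and IRF9 become part of the complex ISGF3. ISGF3 binds interferon-stimulated response elements (ISREs) near its targets, whose products block viral entry, translation and replication. Type II interferon acts on another element, the gamma-activated site (GAS). Endothelial cells respond to interferons, and many of these genes have a low level without a virus.

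Many members carry the response element close to their start site. It is shown for 9 of the 20 members with a match in the window searched. These 9 were picked among members with low estradiol values, abundant members and members most shifted in 2 libraries, so members without a match are not shown. Promoter windows from 250 bases before to 50 after the RefSeq start were found by symbol for 33 of the 40 members (RefSeq, GRCh38.p14). IFIT2, IFITM2, IRF7, MX2, OAS2, OASL and USP18 had no entry. The core of the ISRE searched was GAAANNGAAA on both strands, and 20 of the 33 windows held it, against 3.65% of 27305 promoters and 2.73% of 8746 promoters of tested genes. The GAS letters TTCNNNGAA, which read the same on both strands, were in 8 of the 33 windows and in 7.88% of all promoters. Each line gives 50 bases 5′ to 3′ on the gene's strand, with the core nearest the start in capitals (TTTC letters where it lies on the opposite strand). A match is a description, and other start sites of a gene were not searched.
MX1 (chr21:41420529-41420578, plus strand): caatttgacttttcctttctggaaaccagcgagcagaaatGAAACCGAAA
OAS3 (chr12:112938424-112938473, plus strand): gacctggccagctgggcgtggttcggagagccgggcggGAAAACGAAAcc
DTX3L (chr3:122564292-122564341, plus strand): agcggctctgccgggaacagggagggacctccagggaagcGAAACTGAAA
PARP14 (chr3:122680789-122680838, plus strand): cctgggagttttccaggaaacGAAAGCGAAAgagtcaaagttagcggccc
IFITM3 (chr11:320866-320915, minus strand): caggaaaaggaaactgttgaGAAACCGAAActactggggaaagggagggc
IFI27 (chr14:94110621-94110670, plus strand): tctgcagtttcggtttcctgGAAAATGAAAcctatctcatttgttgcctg
ISG15 (chr1:1013370-1013419, plus strand): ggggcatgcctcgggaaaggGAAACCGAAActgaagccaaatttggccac
IFI44 (chr1:78649739-78649788, plus strand): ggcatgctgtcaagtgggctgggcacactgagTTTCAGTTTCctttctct
EIF2AK2 (chr2:37156977-37157026, minus strand): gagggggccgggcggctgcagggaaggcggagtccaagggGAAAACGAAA

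The core lay from 12 to 21 bases after the start in MX1 and from -12 to -3 in OAS3, counted with the first transcribed base as 1 and the base before it as -1. It spanned -6 to 4 in DTX3L and EIF2AK2, -29 to -20 in PARP14, -18 to -9 in IFI44, -35 to -26 in IFITM3, -95 to -86 in IFI27 and -107 to -98 in ISG15. The members with a core ranged from 0.66 to 245 FPKM in mean level, and the 13 without one in the window from 0.0974 to 31.6 FPKM. Those 13 were ADAR, IRF9, STAT2, SAMHD1, IRF1, IFI35, PARP9, HERC6, XAF1, SP110, RSAD2, OAS1 and CMPK2. Among them OAS1, IRF1, XAF1 and PARP9 also had lower means with estradiol, as described below. Between estradiol and control, on the scale described below, 13 of the 16 tested members with a core had a negative fold change over 8 libraries (median -0.09), as did 8 of the 9 tested members without one (median -0.05). Over 6 libraries the medians were -0.13 and -0.09, and the difference between these classes was not tested.

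Libraries that stand apart bear on every value below. Control replicate 3 and estradiol replicate 4 were shifted by transcript GC content, with rank correlations across genes between GC and deviation of -0.869 and -0.848, against -0.342 to 0.654 in the other 6. Each group holds 1 of the pair, so results are given for all 8 libraries and for the 6 without them. Estradiol replicate 2 was the shallowest library, and genes named as antisense took 0.278% of its reads against 0.178% to 0.204% in the others. Endothelial markers were present in both groups, with 9 of 10 at a mean of 1 FPKM or more, among them CDH5 at 127 FPKM. VWF was low at 0.296 FPKM. Of 8 leukocyte markers 0 reached 1 FPKM, and their summed level was 0.251 to 0.577 FPKM in control and 0.192 to 0.452 in estradiol libraries. CD3E and MS4A1 were at 0 in all 8. Of 4 markers of plasmacytoid dendritic cells, which make much interferon, only TCF4 reached it, and CLEC4C and LILRA4 were at 0. Of 7 fibroblast and smooth muscle markers 0 reached it, with sums of 0.186 to 0.322 and 0.227 to 0.415 FPKM and LUM at 0. Of 6 epithelial markers KRT8, KRT18, KRT19 and CLDN7 did, with sums of 81.8 to 126 and 83.5 to 113 FPKM, while EPCAM and CDH1 were at 0 or close to it in every library. In bulk RNA, fewer cells with a transcript and less of it per cell cannot be told apart.

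Most members were expressed at a low to moderate level, and a few were abundant. IFITM3 and IFI27 averaged 245 and 191 FPKM over the 8 libraries and made up 57.6% of the summed level of the list. Another 8 genes lay between 10 and 100 FPKM, namely BST2, IFITM2, ADAR, ISG15, IRF9, EIF2AK2, STAT2 and IFI44. A further 21 lay between 1 and 10 FPKM, and 9 lay under 1 FPKM, the level required for testing. The median member stood at 5.12 FPKM. The plot of levels by library shows this order and the open symbols of the shifted pair.

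**Figure D1:**
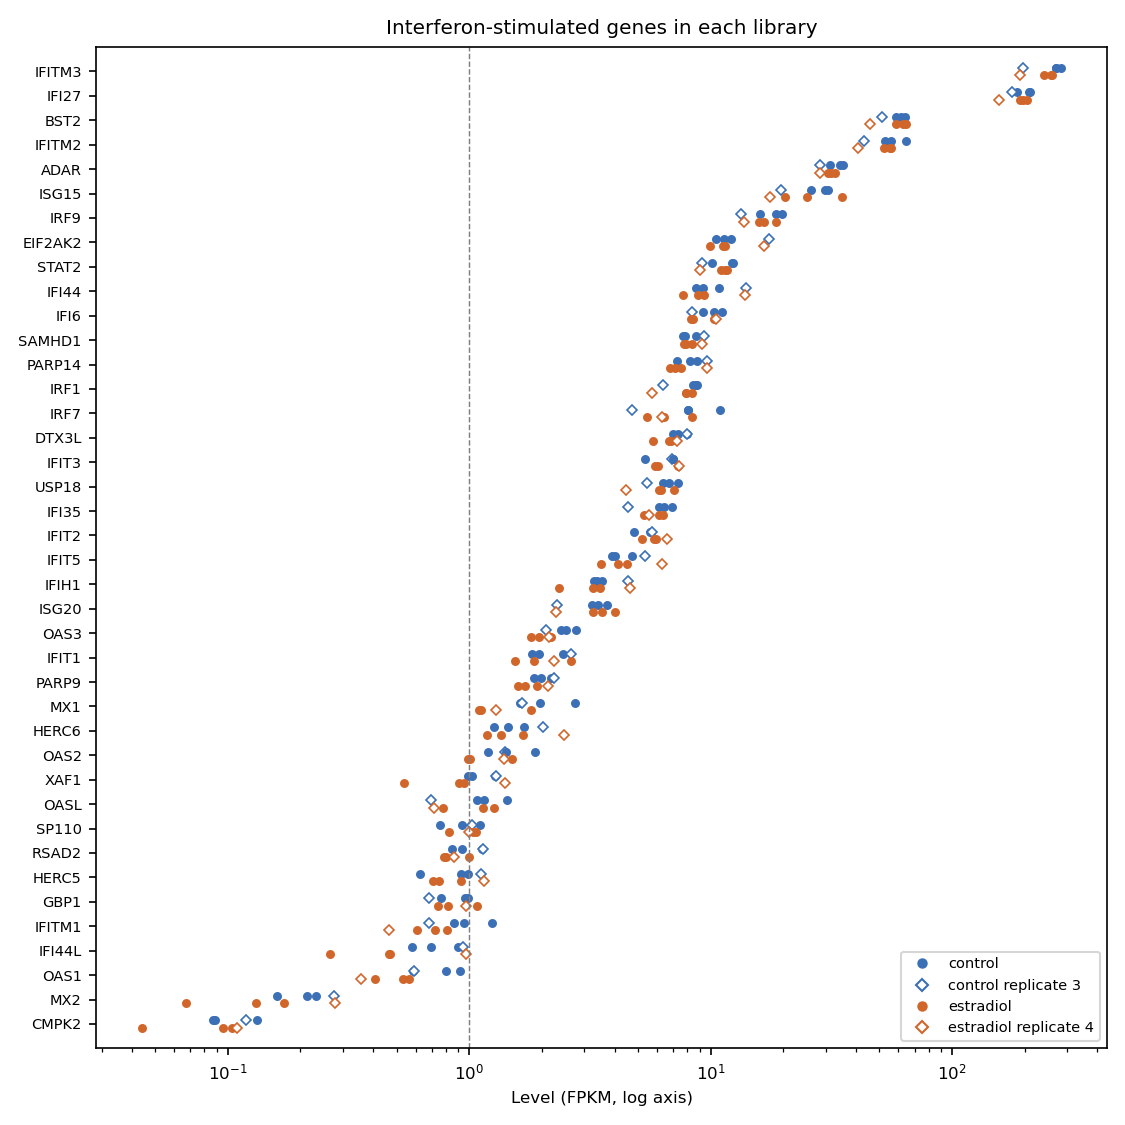
FPKM of the 40 interferon-stimulated genes (log axis) in each of the 8 libraries, with control libraries in blue, estradiol libraries in orange, diamonds for control replicate 3 and estradiol replicate 4, and a dashed line at 1 FPKM. IFITM3 and IFI27 lie above 150 FPKM, 9 genes average under 1 FPKM, and the groups overlap for 39 of the 40 genes.

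No gene passed the test between estradiol and control, members included. By limma on log2(FPKM + 1), 0 of 10720 tested genes (0.0%) had a Benjamini-Hochberg adjusted p under 0.05, and 0 of the 31 tested members did, with an adjusted p of 0.999989 for each. Of 26 genes with an unadjusted p under 0.05 (0.243% of those tested), 1 was a member, MX1. That share is far under the 1 in 20 that chance alone gives when genes vary independently. Tested genes share the shifted pair of libraries, so the share alone cannot show how strict this fit is. Its 0 calls do not show that levels were unchanged. With a term for the shifted pair the median SE over all tested genes was 0.0553 in place of 0.1245. In that fit 351 genes had an unadjusted p under 0.05 by limma, and 0 were called. The test limma-voom on recovered reads called 0 genes as well, with 22 at an unadjusted p under 0.05. Fold changes are the estradiol minus the control mean of log2(FPKM + 1), which understates the change of low genes, and are given ± SE over 8 libraries and then over 6. Group means in FPKM are given ± SD over n = 4 libraries, control first and estradiol second.

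Most members had a lower mean in the estradiol libraries, and none of these differences passed the test. Over 8 libraries 26 of the 31 tested members had a negative fold change (83.9%), with a median of -0.08, beside 50.5% and -0.0005 over all tested genes. Over 6 libraries 28 of 31 were negative (90.3%), with a median of -0.09, beside 51.9% and -0.0034. Between the 2 shifted libraries alone, estradiol replicate 4 minus control replicate 3, 18 of 31 were negative (58.1%), with a median of -0.0089, beside 45.7% and 0.0112. Both over the 6 libraries and within the pair, 16 of 31 members (51.6%) were negative, beside 21.3% of all tested genes. The largest negative values belonged to MX1, IRF7, OAS3 and DTX3L, and IFIT2 had the largest positive one. The plot of fold changes shows narrower intervals over 6 libraries for most members.

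**Figure D2:**
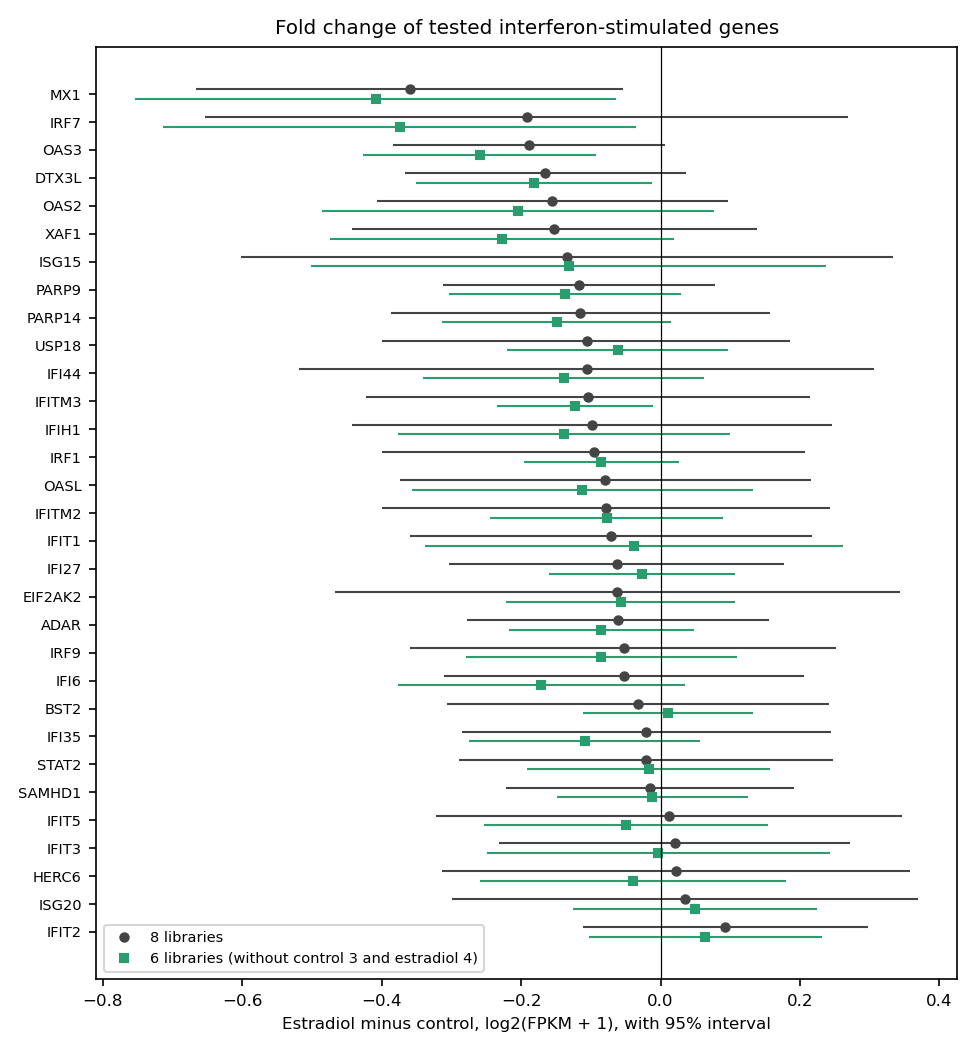
Fold change (estradiol minus control, log2(FPKM + 1)) of the 31 tested members with unadjusted 95% intervals from limma, over 8 libraries (grey circles) and over 6 without control replicate 3 and estradiol replicate 4 (green squares). MX1 has the lowest values, -0.36 and -0.41, IFIT2 the highest, 0.09 and 0.06, and 28 of 31 squares lie below 0.

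The MX proteins are dynamin-like GTPases that trap viral nucleocapsids. MX1 measured 1.62, 2.75, 1.66 and 1.97 FPKM in control replicates 1 to 4 and 1.80, 1.12, 1.101 and 1.29 in estradiol replicates 1 to 4, from 219 to 638 reads. Control replicate 2 stood well above the rest, the other controls overlapped estradiol replicate 1, and estradiol replicates 2 to 4 were the lowest libraries. Its means were 2.00 ± 0.524 and 1.33 ± 0.327 FPKM, with estradiol at 66.5% of control, and its fold change was -0.36 ± 0.14 over 8 libraries and -0.41 ± 0.15 over 6. Without control replicate 2 the fold change of MX1 was -0.25. With a pseudocount of 0.1 it was -0.55, and limma-voom on recovered reads gave -0.58. MX2, its paralogue that restricts retroviruses at the nuclear entry step, was under 1 FPKM at 0.0671 to 0.278 FPKM and 10 to 48 reads, lowest in estradiol replicate 2. Exons of MX1 overlap a gene on the opposite strand in GENCODE 29, as do those of OAS1, IFIT2, IFITM3, ISG15, EIF2AK2, IRF1, SAMHD1, SP110 and XAF1, and without a stated strand setting reads of such pairs cannot be told apart.

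The oligoadenylate synthetases sense double-stranded RNA and make the messenger that activates RNase L, and all 4 members of the family had lower means with estradiol. OAS3, the largest synthetase, measured 2.39, 2.77, 2.09 and 2.51 FPKM in control replicates 1 to 4 and 2.17, 1.79, 1.95 and 2.13 in estradiol replicates 1 to 4. Without the shifted pair the groups did not overlap, since estradiol replicates 1 to 3 reached at most 2.17 and controls at least 2.39 FPKM. Its means were 2.44 ± 0.282 and 2.01 ± 0.175 FPKM over 8 libraries and its fold change was -0.19 ± 0.09 over 8 libraries and -0.26 ± 0.07 over 6. OAS2 measured 1.20, 1.88, 1.40 and 1.43 FPKM in the control libraries and 1.5, 1.01, 0.992 and 1.40 in the estradiol libraries. Control replicate 2 was again the highest library, and estradiol replicate 1 lay above 3 of the 4 controls. The fold change of OAS2 was -0.15 ± 0.11 over 8 libraries and -0.20 ± 0.12 over 6.

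OAS1 was under the 1 FPKM filter, and it was the only member of the 40 whose groups did not overlap over all 8 libraries. It measured 0.586, 0.915, 0.588 and 0.802 FPKM in control replicates 1 to 4 and 0.562, 0.529, 0.406 and 0.356 in estradiol replicates 1 to 4, from 57 to 150 reads. The lowest control library lay just above the highest estradiol library, and the means were 0.723 ± 0.164 and 0.464 ± 0.0980 FPKM, with estradiol at 64.2% of control. Among the 3678 genes under the filter with a mean at least that of the lowest member, every estradiol library was below every control library for 0.489%, beside 1 of 9 members. Over 6 libraries it was 3 of 9 (OAS1, IFI44L and IFITM1), beside 4.54% of those genes. OAS1 is singled out after its values were seen. OASL, a family member without synthetase activity, measured 1.15, 1.44, 0.693 and 1.08 FPKM in the control libraries and 1.27, 1.14, 0.778 and 0.716 in the estradiol libraries. It was lowest in control replicate 3 and estradiol replicate 4, and its fold change was -0.08 ± 0.13 over 8 libraries and -0.11 ± 0.11 over 6.

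The IFIT proteins bind viral RNA ends, and 1 of the 4 had a negative fold change over 8 libraries and 3 of the 4 over 6. IFIT2 measured 5.67, 5.59, 5.70 and 4.84 FPKM in control replicates 1 to 4 and 5.96, 5.81, 5.19 and 6.60 in estradiol replicates 1 to 4. Control replicate 4 was the lowest library and estradiol replicate 4 the highest, and the fold change was 0.09 ± 0.09 over 8 libraries and 0.06 ± 0.07 over 6. IFIT2 was the only tested member with a positive value in all 18 alternative settings. IFIT1, which recognises RNA caps without the mammalian methyl mark, measured 1.82, 2.45, 2.64 and 1.95 FPKM in the control libraries and 2.63, 1.55, 1.86 and 2.24 in the estradiol libraries. Estradiol replicate 1 was as high as control replicate 3, and estradiol replicate 2 was lowest. The fold change of IFIT1 was -0.07 ± 0.13 over 8 libraries and -0.04 ± 0.13 over 6.

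IFIT3, a partner that stabilises IFIT1, measured 5.34, 6.999, 6.89 and 7.01 FPKM in the control libraries and 7.33, 6.03, 5.90 and 7.40 in the estradiol libraries. Control replicate 1 stood below the other 3 controls, and the fold change was 0.02 ± 0.11 over 8 libraries and -0.003 ± 0.11 over 6. IFIT5, which binds RNA with a triphosphate end, measured 3.91, 4.74, 5.37 and 4.04 FPKM in the control libraries and 4.504, 3.53, 4.14 and 6.29 in the estradiol libraries. Both libraries of the shifted pair were the highest for IFIT5, whose transcript has the lowest GC content of the tested members, 37.4%. Its fold change was 0.01 ± 0.15 over 8 libraries and -0.05 ± 0.09 over 6.

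Membrane restriction factors included the most abundant member. IFITM3, which blocks fusion of viruses in endosomes, measured 269, 269.9, 197 and 283 FPKM in control replicates 1 to 4 and 256, 239.6, 259 and 190.4 in estradiol replicates 1 to 4. The pair was lowest, and among the other 6 every estradiol library lay below every control library, at 274 ± 7.76 and 252 ± 10.5 FPKM (SD, n = 3 each). Its fold change was -0.10 ± 0.14 over 8 libraries and -0.12 ± 0.05 over 6, with a much smaller error over 6 libraries. IFITM2 measured 52.7, 55.9, 43.0 and 64.4 FPKM in the control libraries and 52.0, 55.2, 56.0 and 40.6 in the estradiol libraries, with a fold change of -0.08 ± 0.14 over 8 libraries and -0.08 ± 0.07 over 6. IFITM1, IFITM2 and IFITM3 are related genes of similar sequence, and annotated exons of IFITM1 and IFITM2 overlap. Reads could thus have been split between these genes, and their separate levels are uncertain. IFITM1, their relative at the cell surface, was under 1 FPKM with 12 to 33 reads and had 0.934 ± 0.233 and 0.651 ± 0.148 FPKM. Over 6 libraries its estradiol values, at most 0.806 FPKM, lay below all control values, at least 0.867. BST2, which tethers budding virions to the cell, measured 58.8, 61.4, 51.5 and 63.6 FPKM in the control libraries and 62.4, 64.4, 58.4 and 45.9 in the estradiol libraries. Outside the pair its values lay within 58.4 to 64.4 FPKM in both groups, and its fold change was -0.03 ± 0.12 over 8 libraries and 0.01 ± 0.05 over 6.

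All 5 small interferon-induced proteins of the list had lower means with estradiol, over 8 and over 6 libraries. IFI27, a mitochondrial and nuclear envelope protein, measured 185, 207, 177 and 211 FPKM in control replicates 1 to 4 and 196, 204, 192 and 157 in estradiol replicates 1 to 4. All 6 libraries outside the pair lay between 185 and 211 FPKM, and the fold change was -0.06 ± 0.11 over 8 libraries and -0.03 ± 0.06 over 6. IFI6, an endoplasmic reticulum protein that limits flavivirus replication, measured 9.32, 11.1, 8.35 and 10.3 FPKM in the control libraries and 8.46, 8.27, 10.3 and 10.5 in the estradiol libraries. Estradiol replicate 4 was higher than control replicate 3, the reverse of the order of the group means over the other 6, and the fold change was -0.05 ± 0.12 over 8 libraries and -0.17 ± 0.09 over 6. IFI35, a partner of the factor NMI, measured 6.38, 6.89, 4.53 and 6.09 FPKM in the control libraries and 6.34, 6.10, 5.31 and 5.55 in the estradiol libraries, with a fold change of -0.02 ± 0.12 over 8 libraries and -0.11 ± 0.07 over 6.

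IFI44, a cytoplasmic protein, measured 9.31, 10.8, 14.0 and 8.74 FPKM in control replicates 1 to 4 and 9.36, 7.72, 8.85 and 13.9 in estradiol replicates 1 to 4. The pair was far above the other libraries, and estradiol replicate 2 was the lowest. The fold change of IFI44 was -0.11 ± 0.18 over 8 libraries and -0.14 ± 0.09 over 6. Its neighbour and paralogue IFI44L was under the filter and measured 0.578, 0.897, 0.941 and 0.697 FPKM in the control libraries and 0.467, 0.264, 0.470 and 0.967 in the estradiol libraries, from 52 to 221 reads. Estradiol replicates 1 to 3 were below every control, while estradiol replicate 4 was the highest of all 8. Over 6 libraries estradiol stood at 55.3% of control for IFI44L, and over 8 at 69.6%.

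ISG15 is a ubiquitin-like protein that HERC5 attaches to targets and USP18 removes. ISG15 measured 29.7, 30.6, 19.5 and 26.2 FPKM in control replicates 1 to 4 and 35.0, 24.98, 20.4 and 17.6 in estradiol replicates 1 to 4. Estradiol replicate 1 was the highest library, although estradiol replicates 3 and 4 were among the 3 lowest, and the spread within the estradiol group (SD 7.62 FPKM) exceeded the difference of the means (26.5 ± 5.03 and 24.5 ± 7.62). Its fold change was -0.13 ± 0.21 over 8 libraries and -0.13 ± 0.16 over 6. USP18, which also restrains the type I receptor, measured 6.71, 6.34, 5.45 and 7.31 FPKM in the control libraries and 7.03, 6.11, 6.25 and 4.45 in the estradiol libraries. Estradiol replicate 4 was lowest, and the fold change was -0.11 ± 0.13 over 8 libraries and -0.06 ± 0.07 over 6.

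HERC6, a relative of HERC5, measured 1.69, 1.45, 2.02 and 1.27 FPKM in the control libraries and 1.67, 1.19, 1.35 and 2.48 in the estradiol libraries, with a fold change of 0.02 ± 0.15 over 8 libraries and -0.04 ± 0.10 over 6. The pair held the 2 highest values for HERC6, in opposite groups. HERC5 was under the filter at 0.627 to 1.15 FPKM, from 95 to 180 reads, and had means of 0.916 ± 0.208 and 0.882 ± 0.202 FPKM. It too was highest in the pair, and its lowest library was control replicate 4.

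All 4 transcription factors of the list had lower means with estradiol. IRF7, which drives the later wave of type I interferon, measured 10.9, 8.03, 4.72 and 8.06 FPKM in control replicates 1 to 4 and 8.39, 6.41, 5.43 and 6.30 in estradiol replicates 1 to 4. Control replicate 1 was highest and control replicate 3 lowest, so that 1 group held both ends of the range. Its means were 7.93 ± 2.54 and 6.63 ± 1.248 FPKM, its fold change was -0.19 ± 0.21 over 8 libraries and -0.37 ± 0.15 over 6, and IRF7 was the member that changed most when the pair was left out. IRF1, which is induced by interferon gamma, measured 8.46, 8.66, 6.33 and 8.77 FPKM in the control libraries and 8.37, 7.94, 7.94 and 5.69 in the estradiol libraries. Outside the pair the estradiol libraries, at most 8.37 FPKM, lay below the controls, at least 8.46, by a narrow gap. The fold change of IRF1 was -0.10 ± 0.14 over 8 libraries and -0.09 ± 0.05 over 6.

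STAT2 and IRF9 are subunits of ISGF3. STAT2 measured 10.1, 12.3, 9.24 and 12.3 FPKM in the control libraries and 11.7, 11.4, 11.0 and 9.02 in the estradiol libraries, and IRF9 measured 19.8, 18.7, 13.3 and 16.1 FPKM in the control libraries and 18.7, 15.9, 16.6 and 13.7 in the estradiol libraries. Both overlapped broadly between groups. Their fold changes over 8 libraries were -0.02 ± 0.12 and -0.05 ± 0.14, and over 6 they were -0.02 ± 0.08 and -0.09 ± 0.09.

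For EIF2AK2, IFIH1 and ADAR, which bind double-stranded RNA, the shifted pair differed from the other libraries by more than the groups differed. This was not particular to these genes, since it also held for ISG15 and BST2, though not for MX1 and OAS3. EIF2AK2 (PKR), the kinase that halts translation, measured 11.3, 12.2, 17.5 and 10.5 FPKM in control replicates 1 to 4 and 11.3, 9.90, 11.4 and 16.6 in estradiol replicates 1 to 4. The pair stood at 17.5 and 16.6 FPKM against at most 12.2 in any other library. Its fold change was -0.06 ± 0.18 over 8 libraries and -0.06 ± 0.07 over 6. IFIH1 (MDA5), a sensor of long double-stranded RNA, measured 3.28, 3.54, 4.55 and 3.37 FPKM in the control libraries and 3.47, 2.35, 3.26 and 4.63 in the estradiol libraries. It was highest in the pair and lowest in estradiol replicate 2, and its fold change was -0.10 ± 0.15 over 8 libraries and -0.14 ± 0.10 over 6. ADAR, which edits adenosine to inosine and so keeps cellular RNA from being sensed, measured 31.2, 34.4, 28.2 and 35.5 FPKM in the control libraries and 31.6, 30.7, 32.8 and 28.5 in the estradiol libraries, with a fold change of -0.06 ± 0.10 over 8 libraries and -0.09 ± 0.06 over 6.

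PARP9 and DTX3L form a complex of an ADP-ribosyltransferase and a ubiquitin ligase, and PARP14 is a larger transferase nearby on chromosome 3. RefSeq places the starts of DTX3L and PARP9 446 bases apart on opposite strands. DTX3L measured 7.01, 7.99, 7.95 and 7.33 FPKM in control replicates 1 to 4 and 6.75, 5.76, 6.86 and 7.25 in estradiol replicates 1 to 4. Over 6 libraries the groups did not overlap, and over 8 only estradiol replicate 4 reached into the control range. Its means were 7.57 ± 0.477 and 6.66 ± 0.632 FPKM and its fold change was -0.17 ± 0.09 over 8 libraries and -0.18 ± 0.07 over 6. PARP9 measured 1.85, 2.18, 2.25 and 1.98 FPKM in the control libraries and 1.90, 1.59, 1.70 and 2.13 in the estradiol libraries, with a fold change of -0.12 ± 0.09 over 8 libraries and -0.14 ± 0.07 over 6. PARP14 measured 7.24, 8.74, 9.70 and 8.19 FPKM in the control libraries and 7.55, 6.77, 7.14 and 9.62 in the estradiol libraries, with a fold change of -0.12 ± 0.12 over 8 libraries and -0.15 ± 0.07 over 6. All 3 genes were lowest in estradiol replicate 2 and, outside the pair, highest in control replicate 2. Exons of DTX3L and PARP9 overlap on opposite strands in GENCODE 29, so the same limit holds for this pair of genes.

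Among the enzymes of nucleotide and RNA metabolism, SAMHD1, which hydrolyses deoxynucleotides, measured 7.70, 8.72, 9.39 and 7.84 FPKM in the control libraries and 8.35, 7.94, 7.73 and 9.20 in the estradiol libraries. Its groups overlapped almost wholly, and its fold change was -0.01 ± 0.09 over 8 libraries and -0.01 ± 0.06 over 6. ISG20, an RNA exonuclease, measured 3.71, 3.40, 2.31 and 3.22 FPKM in the control libraries and 4.00, 3.56, 3.25 and 2.29 in the estradiol libraries, with a fold change of 0.04 ± 0.15 over 8 libraries and 0.05 ± 0.08 over 6. RSAD2 (viperin), which makes a chain-terminating nucleotide, averaged 1.01 ± 0.148 and 0.864 ± 0.0976 FPKM from 98 to 167 reads. Its neighbour CMPK2, a mitochondrial nucleotide kinase, was the lowest member, at 0.0442 to 0.132 FPKM and 7 to 21 reads. The exons of this pair of genes also overlap on opposite strands.

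Of the remaining genes XAF1, a pro-apoptotic partner of XIAP, measured 0.986, 1.28, 1.30 and 1.03 FPKM in the control libraries and 0.954, 0.535, 0.909 and 1.41 in the estradiol libraries. Estradiol replicate 2 was the lowest library by far and estradiol replicate 4 the highest, both in the same group. The fold change of XAF1 was -0.15 ± 0.13 over 8 libraries and -0.23 ± 0.11 over 6, and over 6 libraries its groups did not overlap. SP110, a nuclear body protein, averaged 0.956 ± 0.153 and 0.981 ± 0.109 FPKM, and GBP1, a guanylate-binding protein with a strong response to interferon gamma, 0.847 ± 0.151 and 0.902 ± 0.152 FPKM. These 2 genes under the filter had slightly higher means with estradiol over 8 libraries.

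Groups that did not overlap were rare over 8 libraries and more frequent over 6. Every estradiol library lay below every control library for 0 of the 31 tested members over 8 libraries, beside 0.224% of all tested genes. Over 6 libraries this held for 5 of 31 (OAS3, IFITM3, IRF1, XAF1 and DTX3L), or 16.1%, beside 4.93% of all tested genes. The opposite order, estradiol above control, held for 0 of 31 members and for 4.6% of all tested genes. In the 6-library fit 5 of 31 members had an unadjusted p under 0.05 (MX1, OAS3, IFITM3, IRF7 and DTX3L), beside 416 of all 10720 tested genes (3.88%), and 0 members passed with limma's adjusted p, the lowest being 0.992.

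The 31 tested members split by transcript GC content in the shifted pair. The mean of control replicate 3 and estradiol replicate 4 was above that of the other 6 libraries for 14 members, all with a GC content of 47.0% or less. It was below for 17 members, all with 49.3% or more. EIF2AK2 (38.7% GC) and IFI44 (39.1%) had shifts of 0.58 and 0.57 on the log2 scale, and ISG15 (63.4%) and ISG20 (53.0%) of -0.54 and -0.45. The rank correlation of this shift with GC content was -0.851 across the 31 members and -0.885 across 10250 tested genes with a GC value, given as descriptions across genes that share these libraries. MX1, OAS3 and OAS2 shifted little, by -0.12, -0.06 and 0.05. The cause of the shift was not tested.

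**Figure D3:**
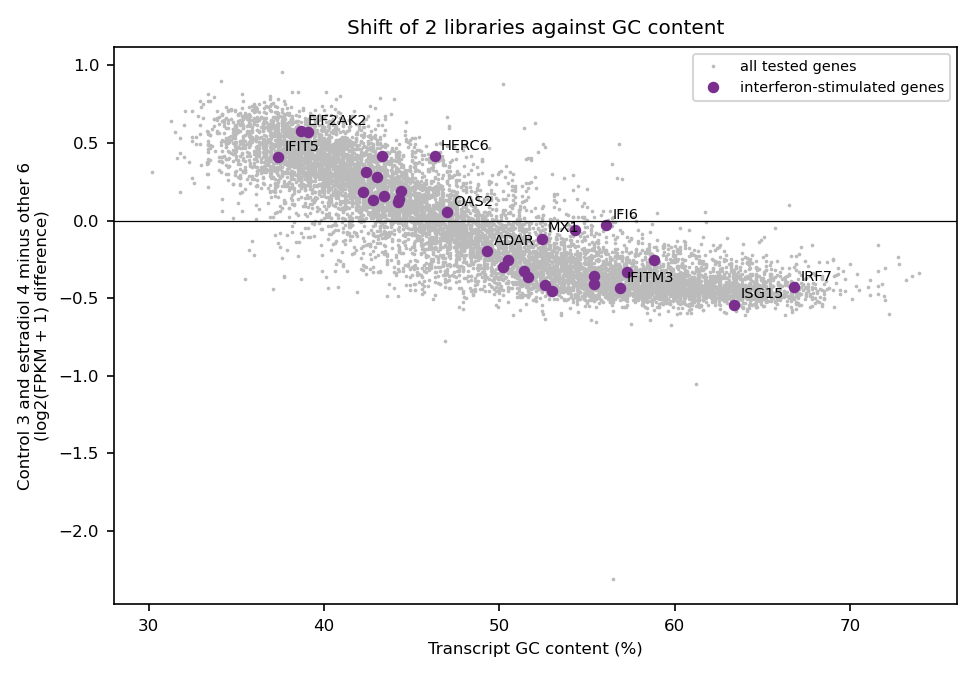
Shift of control replicate 3 and estradiol replicate 4 against the other 6 libraries (difference of mean log2(FPKM + 1)) plotted against the GC content of each gene's longest GENCODE transcript, for all tested genes (grey) and the 31 tested members (purple). Members up to 47.0% GC lie above 0 and members from 49.3% GC lie below.

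Outside the pair, control replicate 2 and estradiol replicates 2 and 3 had the largest median deviations of the members, up or down. In control replicate 2 the median tested member was 0.098 above its own median over the 6 libraries (log2 scale), 26 of 31 members were above it, and 16 had their highest value there, beside 14.7% of all tested genes. In estradiol replicate 2 the median member was at -0.14, 26 were below, and 16 had their lowest value there, beside 15.9% of all tested genes. This library also had the fewest reads and the largest antisense share, whose part in the members' low values was not tested. Estradiol replicate 3 was at -0.06, with 26 below. There 8 of 31 members had their lowest value, a share close to the 25.4% of all tested genes. Estradiol replicate 1 lay on the other side, since its median member was at 0.04, 21 of 31 members were above their median, and 1 was lowest there. Over all tested genes the median deviation in these 6 libraries was within -0.0064 to 0.0058.

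**Figure D4:**
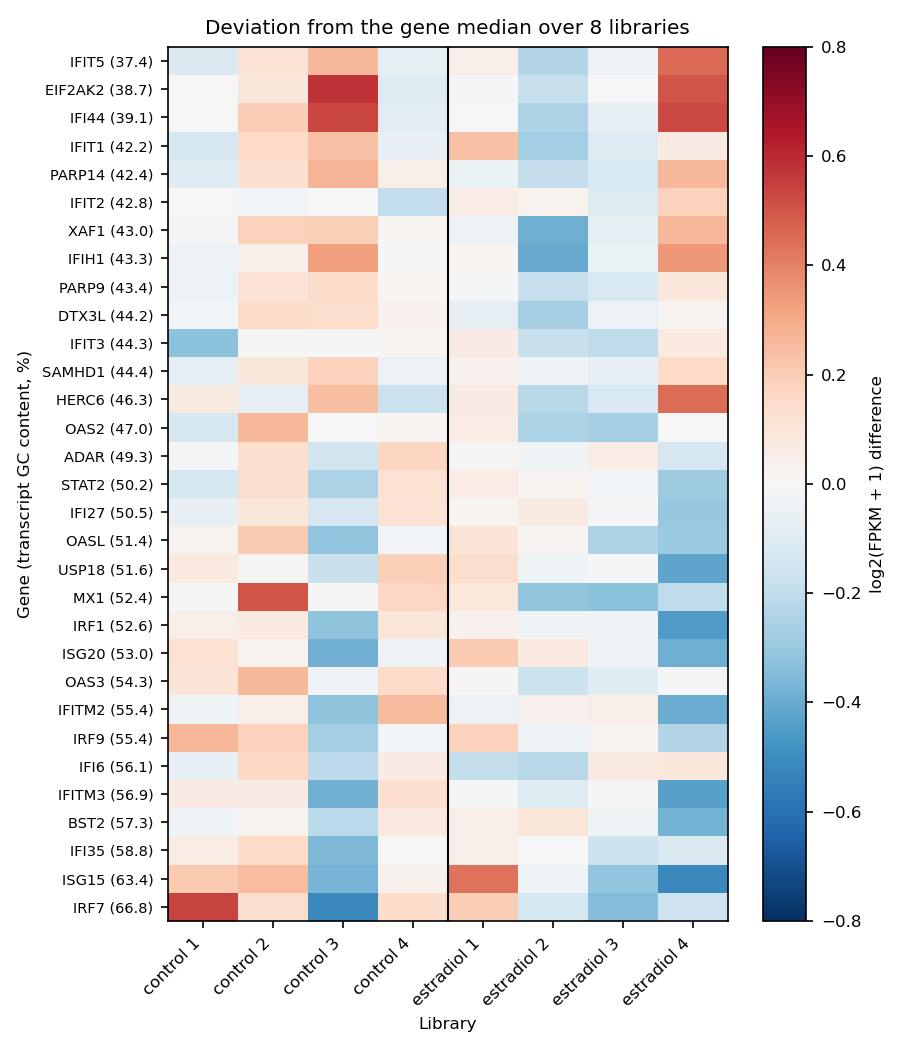
Deviation of each tested member from its own median over the 8 libraries (difference on the log2(FPKM + 1) scale, red above and blue below), with genes ordered by transcript GC content from 37.4% at the top to 66.8% at the bottom. Control 3 and estradiol 4 turn from red to blue down the plot, control 2 is red for most genes, and estradiol 2 is blue for most.

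The members' median depended on single libraries. It was -0.06 without estradiol replicate 4, with 21 of 31 members negative beside 45.3% of all tested genes. Without estradiol replicate 2 it was -0.06, with 22 negative beside 52.6%, and without control replicate 2 it was -0.06, with 23 negative beside 47.8%. The highest count, 28 negative beside 53.4%, came without estradiol replicate 1, at a median of -0.11. Without the pair and without estradiol replicate 2, a setting chosen after seeing the data, 24 of 31 were negative beside 50.4%, with a median of -0.07. In all, 11 tested members had negative values in every setting that tested them, namely MX1, OAS2, OAS3, OASL, IFITM3, IRF7, XAF1, PARP9, PARP14, DTX3L and ADAR. At its closest to 0 the value was -0.001 for OASL, -0.004 for IFITM3 and -0.016 for ADAR, beside -0.247 for MX1. Adding a term for the pair or for the replicate number left each value the same.

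Deviations of the members from their group means tended to share their sign once the pair was left out. Over the 6 libraries the median correlation among 465 pairs of tested members was 0.401, with 79.1% of pairs above 0, beside 0.013 and 50.7% over all pairs of tested genes. Over 8 libraries it was 0.229 and 57.6%, beside 0.029 and 50.6%. These are descriptions from few libraries that share depth and GC shifts. In the 6 libraries PARP9, IFIT1, OAS3, OAS2 and MX1 followed the mean of the other members most closely (0.984, 0.982, 0.981, 0.963 and 0.960), and IFITM2 did not (-0.212). The median SD within groups on the log2 scale was 0.111 for the tested members and 0.0768 for all tested genes over 6 libraries, and 0.201 and 0.187 over 8. The 5 genes outside the list whose profile over 8 libraries was most like the members' mean profile were ARHGAP26, PDZD11, CA3, URB2 and SDHB, with correlations of 0.967, 0.92, 0.909, 0.902 and 0.902. Over 6 libraries the 5 were others, CIB1, LOC105374746, RASSF8-AS1, KCNAB2 and DNAL1, at 0.989 to 0.996. These are the highest correlations out of all tested genes outside the list. With so few libraries, picking the highest can give such values by itself, so no shared regulation can be read from them.

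The genes that send and receive the signal were listed apart from the members, as 44 genes of which 27 could be tested, and 0 were called in either direction. Their median fold change over 8 libraries was 0.0, with 13 positive and 13 negative. Interferon transcripts were at or near 0. IFNK, IFNW1, IFNG, IFNL1, IFNL2 and IFNL3 had 0 reads in all libraries, which allows up to 3 reads in each by counting error alone, IFNB1 at most 2 reads and IFNA1 and IFNA2 at most 5 in any library. IFNE, an interferon known from epithelia of the reproductive tract, was the exception at 4.70 ± 0.276 and 5.19 ± 1.31 FPKM. Estradiol replicate 4 was highest at 7.15 FPKM, and its fold change was 0.10 over 8 libraries and -0.02 over 6. IFNE and IFNLR1 are named after their values were seen, the other genes below for their high level.

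The receptors of type I and type II interferon were expressed at similar levels in both groups. IFNAR1 stood at 15.2 ± 3.66 and 14.6 ± 3.19 FPKM, IFNGR1 at 16.8 ± 3.76 and 16.7 ± 4.13 and IFNGR2 at 14.5 ± 1.67 and 15.4 ± 0.983, whereas IFNLR1, the receptor of type III interferon, had at most 1 read. JAK1 was the most abundant gene of the pathway at 135 ± 9.08 and 135 ± 12.1 FPKM. Among sensors and adaptors IFI16 stood at 63.7 ± 10.1 and 64.3 ± 14.6 FPKM, STING1 at 54.5 ± 8.07 and 51.9 ± 8.22, TBK1 at 23.5 ± 5.67 and 24.7 ± 6.21 and MAVS at 22.1 ± 2.17 and 21.4 ± 2.02. These genes detect or relay the presence of nucleic acids. The phosphatase PTPN11 stood at 52.5 ± 6.24 and 53.1 ± 4.17 FPKM and STAT3 at 28.7 ± 3.84 and 28.99 ± 2.41. Over 8 libraries the difference of the group means was smaller than the larger group SD for each gene named here. The SDs over 8 libraries include the shifted pair. Over 6 libraries this did not hold for PTPN11 (49.4 ± 1.09 and 51.0 ± 0.651 FPKM) and TBK1 (20.7 ± 0.742 and 21.6 ± 0.775 FPKM), both higher with estradiol.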

How the data were processed

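RNA of 4 control and 4 estradiol TeloHAEC libraries was sequenced. The authors deposited FPKM values per gene, and no aligner, build, annotation or strand setting is given in the sources used here. The submitters' processing notes name fastp 0.20.1 and HTSeq. FPKM scales with library total and gene length, so a shift in GC content or in a few abundant genes moves other genes' values. FPKM steps gave whole reads for each of 152348 values above 0 (tolerance 1e-06), 33421051 to 39899258 per library.

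Members and lists were chosen with earlier results of these data known. Every member was named, with pathway genes by role and level. Genes with a mean of at least 1 FPKM (10720) were fitted in limma 3.58.1 (R 4.3.3) on log2(FPKM + 1), estradiol against control, with Benjamini-Hochberg adjustment over all of them at 0.05. The fit was run on simulated data with independent normal noise for each gene and no GC shift. That check therefore does not cover the shifted pair. Alternatives were another pseudocount, other filters and scalings, limma-voom on recovered reads, a term for the shifted pair, a replicate block and left-out libraries. GC content came from the longest GENCODE 29 transcript, for 95.6% of tested genes and all members. Tables were handled in Python 3.11.15 with pandas 2.3.3. No libraries held identical values. Deviations of same-numbered libraries were correlated at 0.616 for number 1, 0.073 for 2, -0.478 for 3 and -0.737 for 4. Control replicate 3 and estradiol replicate 4 carry the GC shift under different numbers, so these values cannot show whether libraries were paired. Numbers were not taken as pairs because nothing states that they are.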

Additional observations from a re-analysis of the deposited data

Results flagged for a closer look

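A single library lay far from the other 3 of its group, by Dixon's 95% critical value, in 5 of 80 groups tested over the 40 members, and chance alone gives about 1 in 20. IFIT2 was 4.837 FPKM in control replicate 4, below 5.593 to 5.703 in the other controls, and its fold change was 0.09 with this library and 0.05 without it. IFIT3 was 5.338 FPKM in control replicate 1, below 6.891 to 7.015. IFITM3 was 196.7 FPKM in control replicate 3, below 269.0 to 282.9. IRF1 was 6.331 FPKM in control replicate 3, below 8.463 to 8.773, and 5.692 in estradiol replicate 4, below 7.942 to 8.368. The last 3 values belong to the 2 libraries shifted by GC content, and IFITM3 and IRF1 are among the members that are lower in both of them.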

How the results depend on the processing

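In all 18 alternative settings 0 genes, 0 members and 0 pathway genes were called by limma's adjusted p. The median fold change of the tested members was negative in each, from -0.119 without control replicate 3 to -0.0565 without control replicate 4 when 1 library was left out. With the replicate number as a block, 0 genes were called and 11 had an unadjusted p under 0.05, and the members' median stayed at -0.08. Same-numbered libraries had deviations correlated at 0.616, 0.073, -0.478 and -0.737. The shifted libraries carry different numbers, so these values cannot show whether the numbers pair libraries, and the block rests on an unstated pairing. Of 547 values of single members under these settings 1 moved by more than the spread of its libraries, MX1 at -0.58 by limma-voom against -0.36, and it was -0.55 with a pseudocount of 0.1. Without a filter 437 genes had an unadjusted p under 0.05, and with a term for the shifted pair 351. Of the 31 tested members 19 changed sign in at least 1 setting. With 4 libraries a group, the median SE of a tested member was 0.13 on the log2 scale, above most of the members' differences.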
